A study of Homo sapiens with 16 samples.

Results

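HNF4A, HNF4G, FOXA1, FOXA2, FOXA3, CEBPA, NR5A2 and ONECUT1 encode transcription factors of the hepatocyte lineage. These 8 genes were taken by symbol from the 26258 genes of the deposited expression table, by a rule that uses symbols only. The 8 genes and the lists used below were chosen with earlier results of these data known. RNA had been sequenced from Huh7 and Hep3B, a pair of human hepatocellular carcinoma (HCC) lines, in order to compare Sorafenib-sensitive with Sorafenib-resistant cells. Sorafenib is a multi-kinase inhibitor used against advanced HCC. Each line was represented by 2 libraries of parental cells, 2 labeled DMSO, 2 of IR cells (made resistant in increasing concentrations of the drug) and 2 of CR cells (made resistant in a constantly high concentration). The IR and CR libraries carry the label 7 μM Sorafenib, and the parental and DMSO libraries are labeled untreated, so the presence of the drug and the resistance to it cannot be told apart. The treatment of the DMSO cells is not described in the sources used here, and the growth and treatment notes name Huh7 only. All groups are cultured tumor lines. The study's methods describe RNA of biological triplicates, and 2 libraries per group were analysed here, so that p-values rest on the spread between these libraries. The paper names a single IR line and a single CR line from each parental line and describes no repeated selections. The p-values therefore do not measure how far separate selections would differ.

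Hepatocyte identity rests on a small circuit of factors that bind each other's genes as well as the genes of liver function. HNF4A and its paralog HNF4G are nuclear receptors acting on genes of lipoprotein, bile acid and clotting factor production. The FOXA factors open chromatin at liver enhancers, C/EBPα (CEBPA) restrains proliferation and drives metabolic genes, NR5A2 (LRH-1) controls bile acid and cholesterol genes, and ONECUT1 (HNF6) acts in liver and bile duct development.

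The 16 libraries held between 46613302 and 76860251 reads. Expression was given as reads scaled to a common library total (CPM), and all 8 genes were among the 15019 genes that reached 1 CPM in 2 or more libraries and were tested with limma on log2(CPM + 1). A change was called at a Benjamini-Hochberg adjusted p below 0.05 over all tested genes. The summed level of 12 hepatocyte markers such as ALB and AFP was 11680 to 29620 CPM in untreated Huh7 and 20590 to 45080 CPM in untreated Hep3B libraries, so the cells carried the labeled lineage. The sum was higher in DMSO than in parental libraries, with 24070 to 29620 against 11680 to 17250 CPM in Huh7. In Hep3B these were 38050 to 45080 against 20590 to 25690 CPM. In Huh7 the sum was 93.8 to 412 CPM in IR and 1316 to 2709 CPM in CR libraries, and in Hep3B it was 3798 to 11360 and 2319 to 3716 CPM. The sum of 7 mesenchymal markers was 1043 to 1545 CPM in untreated and 2985 to 3954 CPM in Sorafenib Huh7 libraries, and 522 to 791 against 1072 to 2150 CPM in Hep3B. The sum of 7 cholangiocyte markers was 519 to 636 CPM in untreated and 269 to 402 CPM in Sorafenib Huh7 libraries, and 767 to 839 against 836 to 1030.0 CPM in Hep3B. Of these 7, KRT7 was higher in IR and CR cells of Huh7 (log2 changes of 3.68 and 3.64) and SPP1 lower (-6.53 and -3.82). The sum of 4 immune markers was 6.69 to 16.02 CPM in untreated and 47.5 to 73.3 CPM in Sorafenib Huh7 libraries, and 7.75 to 33.8 against 27.9 to 51.8 CPM in Hep3B. Of these, CD68 was called higher in all 4 resistant groups, by 3.62 and 3.32 in Huh7 and 2.19 and 1.78 in Hep3B. PTPRC was called lower in IR and CR cells of Huh7 (-0.93 and -0.69), as was CD14 in its IR cells (-1.21). Neither PTPRC nor CD14 was called in Hep3B. Endothelial markers (4 genes) summed to at most 6.36 CPM in any library. In Huh7-IR cells the median log2 change of all genes was 0.19, and it was 0.07 with edgeR, 0.04 with TMM factors and -0.01 after a correction for GC content. Replicates differed most in Huh7-IR and Huh7 DMSO cells, with an SD of the log2 difference across genes of 0.57 in both against 0.24 to 0.31 in the other groups.

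In untreated cells of both lines all 8 factors were expressed. Per kb of transcript, CEBPA and HNF4A had the highest levels in Huh7 parental cells, with means of 49.7 and 46.8 CPM per kb, followed by NR5A2 at 32.6, FOXA3 at 23.1 and FOXA2 at 19.3. FOXA1 with 6.89, HNF4G with 5.93 and ONECUT1 with 2.80 CPM per kb were lower. In Hep3B parental cells CEBPA also came first with 66.1 CPM per kb and ONECUT1 last with 4.75, while FOXA1 stood at 24.97. FOXA1 was lower in Huh7 than in Hep3B parental cells by a log2 difference of -1.84 ± 0.25 (SE, adjusted p = 7.61e-05, limma), and ONECUT1 by -0.72 ± 0.23 (adjusted p = 0.0202). These were 2 of the 8 genes, both lower in Huh7, where 27.8% of all tested genes were lower. The ONECUT1 difference missed the threshold without any single one of the 4 parental libraries, at -0.80 to -0.64.

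In the resistant cells most of these factors were lower, and more so in Huh7 than in Hep3B. All 8 fell in IR cells of Huh7 and 7 in its CR cells, where 21.5% and 16.8% of all tested genes fell. In Hep3B, 3 of the 8 fell in IR cells (13.7% of all tested genes) and 5 in CR cells (15.2%). None of the 8 was called higher in these 4 comparisons, where 36.0%, 24.5%, 18.3% and 23.6% of all tested genes were. The median log2 change of the 8 genes was -2.55 and -2.42 in IR and CR cells of Huh7, against 0.19 and 0.07 for all tested genes. In Hep3B it was -0.38 and -1.19, against 0.06 and 0.11. The comparisons of IR and CR cells of a line use the same parental libraries. In RNA of whole cultures, fewer cells that express a gene and less of its RNA per cell cannot be told apart.

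HNF4A, the nuclear receptor at the center of the hepatocyte circuit (chromosome 20, 42984339 to 43061485, plus strand, GRCh37), measured 232 and 203 CPM in Huh7 parental and 194 and 210 CPM in Huh7 DMSO libraries. It measured 23.7 and 63.8 CPM in Huh7-IR and 72.1 and 110 CPM in Huh7-CR libraries. Both resistant groups lay below every untreated Huh7 library, and the Huh7-IR replicates lay far apart. HNF4A fell by 2.45 ± 0.34 (log2) in IR cells of Huh7 (adjusted p = 7.86e-05, limma) and by 1.28 ± 0.34 in its CR cells (adjusted p = 0.00985). The call in Huh7-CR cells was lost without Huh7 parental replicate 1 (-1.19, adjusted p = 0.0595), without Huh7-CR replicate 1 (-0.98, adjusted p = 0.101) and in a fit of the Huh7 libraries alone (adjusted p = 0.065).

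In Hep3B, HNF4A measured 191 and 198 CPM in parental, 207 and 218 in DMSO, 220 and 154 in IR and 119 and 115 in CR libraries. The IR replicates spanned the parental ones, while both CR libraries lay below all the others. Neither change passed the test, with -0.08 ± 0.34 in IR (adjusted p = 0.901) and -0.73 ± 0.34 in CR cells (adjusted p = 0.109, limma). The Hep3B-CR change was called with DESeq2 (-0.87, adjusted p = 0.0355), after GC correction (-0.93, adjusted p = 0.0377), in fits of fewer libraries, and without either Huh7-IR library, which enter only the shared estimate of the spread (adjusted p = 0.0109).

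HNF4G, the paralog of HNF4A, measured 24.85 and 24.95 CPM in Huh7 parental, 34.9 and 39.2 in DMSO, 12.6 and 14.9 in IR and 15.7 and 13.7 in CR libraries. The resistant libraries lay below the untreated ones without overlap. HNF4G fell by 0.81 ± 0.19 (log2) in IR cells of Huh7 (adjusted p = 0.00306, limma) and by 0.73 ± 0.19 in its CR cells (adjusted p = 0.00925), the latter call being lost without Huh7-CR replicate 2 (-0.63, adjusted p = 0.067). Its Hep3B levels were 34.5 and 31.1 CPM in parental, 35.6 and 35.1 in DMSO, 33.1 and 50.6 in IR and 28.3 and 34.6 in CR libraries. These groups were close to each other apart from IR replicate 2, and the log2 changes of 0.31 ± 0.19 in IR and -0.06 ± 0.19 in CR cells were not called. Without IR replicate 1 the Hep3B-IR change was 0.61 with an adjusted p of 0.0456.

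FOXA1, a pioneer factor, measured 18.9 and 29.4 CPM in Huh7 parental, 44.3 and 54.6 in DMSO, 4.49 and 4.66 in IR and 1.93 and 3.70 in CR libraries. It fell by 2.14 ± 0.25 (log2) in IR cells of Huh7 (adjusted p = 2.33e-05, limma) and by 2.73 ± 0.25 in its CR cells (adjusted p = 6.7e-06). In Hep3B it measured 79.2 and 96.0 CPM in parental, 108 and 112 in DMSO, 44.7 and 56.4 in IR and 28.9 and 37.4 in CR libraries. All Sorafenib libraries of a line lay below all untreated ones. FOXA1 fell by 1.38 ± 0.25 in Hep3B-CR cells (adjusted p = 0.00121) and by 0.78 ± 0.25 in Hep3B-IR cells (adjusted p = 0.0327). The Hep3B-IR call was lost without the filter on low values and without any one of its 4 libraries, with -0.92 and -0.65 without parental replicates 1 and 2 and -0.62 and -0.95 without IR replicates 1 and 2.

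FOXA2 stood apart from the other FOXA genes. It measured 53.3 and 44.6 CPM in Huh7 parental, 51.3 and 79.2 in DMSO, 20.8 and 39.6 in IR and 32.4 and 38.4 in CR libraries. It fell by 0.74 ± 0.26 (log2) in IR cells of Huh7 (adjusted p = 0.0283, limma), while the change of -0.46 ± 0.26 in Huh7-CR cells was not called (adjusted p = 0.186). The Huh7-IR call rested on few libraries, and it was lost without parental replicate 1 (-0.62, adjusted p = 0.143), parental replicate 2 (-0.87, adjusted p = 0.0519) or IR replicate 1 (-0.29, adjusted p = 0.314). It was also lost without the filter on low values and in fits of fewer libraries. Against the DMSO libraries the Huh7-CR change was -0.84 and was called (adjusted p = 0.0224), as was the -0.56 after GC correction (adjusted p = 0.0305).

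In Hep3B, FOXA2 measured 50.5 and 42.8 CPM in parental, 46.2 and 50.3 in DMSO, 34.6 and 33.8 in IR and 40.9 and 46.4 in CR libraries. The IR libraries were lower than all untreated ones and the CR libraries overlapped them. Neither the log2 change of -0.43 ± 0.26 in IR (adjusted p = 0.238, limma) nor that of -0.09 ± 0.26 in CR cells (adjusted p = 0.828) was called. The change in IR cells was called in a fit of the Hep3B libraries alone (adjusted p = 0.0225) and with the replicate block and GC correction together (-0.49, adjusted p = 0.0449).

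FOXA3, the third member of the family, measured 47.1 and 41.9 CPM in Huh7 parental, 45.0 and 44.5 in DMSO, 5.17 and 7.55 in IR and 6.09 and 9.02 in CR libraries. It fell by 2.64 ± 0.19 (log2) in IR cells of Huh7 (adjusted p = 5.46e-07, limma) and by 2.43 ± 0.19 in its CR cells (adjusted p = 1.77e-06). In Hep3B it measured 47.3 and 44.0 CPM in parental, 53.0 and 55.2 in DMSO, 21.5 and 23.6 in IR and 19.3 and 22.1 in CR libraries. The Sorafenib libraries lay below the untreated ones in both lines, and FOXA3 fell by 0.99 ± 0.19 in Hep3B-IR (adjusted p = 0.00206) and by 1.11 ± 0.19 in Hep3B-CR cells (adjusted p = 0.000827). These calls were made under all 30 alternative settings in each of the 4 comparisons.

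The unequal changes shifted the make-up of the FOXA family, which was looked at after the values had been seen and was not tested. As a share of the summed CPM per kb of FOXA1, FOXA2 and FOXA3, FOXA2 made up 36.0% to 44.7% in the 4 untreated and 67.4% to 77.4% in the 4 Sorafenib libraries of Huh7. In Hep3B the FOXA2 share was 23.8% to 29.7% in untreated, 31.9% to 36.3% in IR and 45.2% to 46.9% in CR libraries. The summed level itself was 47.8 to 69.9 CPM per kb in untreated and 12.2 to 20.9 in Sorafenib libraries of Huh7, and 67.1 to 80.4 against 34.4 to 41.7 in Hep3B.

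CEBPA, the metabolic regulator C/EBPα (chromosome 19, 33790840 to 33793440, minus strand, GRCh37), had the most negative log2 change of the 8 factors in CR cells of Huh7, and in IR cells it stood with NR5A2, the pair differing by less than their errors. It measured 109 and 149 CPM in Huh7 parental, 178 and 276 in DMSO, 3.50 and 7.08 in IR and 2.32 and 4.67 in CR libraries. The mean CPM of CEBPA was 4.09% of the parental mean in IR and 2.70% in CR cells. By this measure ONECUT1 was close to CEBPA and NR5A2 in IR cells, at 5.09% against 4.78% for NR5A2. The 1 CPM added before the log2 step makes the change of ONECUT1 look smaller. CEBPA fell by 4.42 ± 0.32 (log2) in IR cells of Huh7 (adjusted p = 4.79e-07, limma) and by 4.89 ± 0.32 in its CR cells (adjusted p = 3.05e-07), and it was called under all 30 alternative settings in both.

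In Hep3B, CEBPA measured 143 and 201 CPM in parental, 271 and 297 in DMSO, 58.7 and 65.6 in IR and 70.5 and 69.0 in CR libraries. All Sorafenib libraries lay below the untreated ones, at 36.2% (IR) and 40.6% (CR) of the parental mean. CEBPA fell by 1.43 ± 0.32 in IR (adjusted p = 0.00434, limma) and by 1.27 ± 0.32 in CR cells (adjusted p = 0.00755). Both calls were lost without Hep3B parental replicate 2, at -1.19 (adjusted p = 0.0533) and -1.03 (adjusted p = 0.0783).

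CEBPB, a paralog linked to injury and inflammatory responses, rose in all 4 resistant groups. It measured 3.59 to 4.93 CPM in the Huh7 parental libraries against 20.8 to 29.3 in IR and 16.5 to 17.8 in CR libraries, with log2 changes of 2.30 ± 0.25 and 1.80 ± 0.25 (adjusted p = 1.13e-05 and 0.000128, limma). In Hep3B the log2 changes were 1.88 ± 0.25 in IR and 2.47 ± 0.25 in CR cells (adjusted p = 0.00015 and 1.77e-05). The ratio of CEBPA to CEBPB, in CPM per kb, was 15.7 to 33.3 in the untreated Huh7 libraries and 0.0845 to 0.241 in the Sorafenib ones, so that CEBPB exceeded CEBPA there. In Hep3B the ratio was 19.2 to 25.4 and 1.36 to 2.33, and CEBPA stayed above CEBPB. This ratio was chosen after the values had been seen and was not tested.

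NR5A2, the nuclear receptor LRH-1 (chromosome 1, 199996742 to 200146548, plus strand, GRCh37), measured 161 and 163 CPM in Huh7 parental, 212 and 197 in DMSO, 3.66 and 11.8 in IR and 23.2 and 37.6 in CR libraries. Untreated, CR and IR libraries of Huh7 did not overlap. NR5A2 fell by 4.40 ± 0.36 (log2) in IR cells of Huh7 (adjusted p = 1.27e-06, limma) and by 2.42 ± 0.36 in its CR cells (adjusted p = 0.000219). In Hep3B it measured 155 and 129 CPM in parental, 145 and 140 in DMSO, 130 and 99.1 in IR and 55.0 and 47.5 in CR libraries. Only the CR libraries lay apart from the untreated ones. NR5A2 fell by 1.45 ± 0.36 in Hep3B-CR cells (adjusted p = 0.00694), and the change of -0.32 ± 0.36 in Hep3B-IR cells was not called (adjusted p = 0.545).

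ONECUT1, a cut-homeobox factor (chromosome 15, 53047250 to 53083275, minus strand, GRCh37), measured 11.7 and 12.6 CPM in Huh7 parental, 13.3 and 16.4 in DMSO, 0.381 and 0.858 in IR and 0.464 and 0.589 in CR libraries. The Sorafenib libraries of Huh7 held 23 to 45 reads of the gene each, and the untreated ones 804 to 1144. ONECUT1 fell by 3.04 ± 0.23 (log2) in IR cells of Huh7 (adjusted p = 7.49e-07, limma) and by 3.11 ± 0.23 in its CR cells (adjusted p = 9.47e-07). The added 1 CPM understates the change of a gene at this level, and the mean CPM was 5.09% of the parental mean in IR and 4.32% in CR cells. With 0.25 CPM added instead, the log2 changes were -4.54 and -4.62.

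In Hep3B, ONECUT1 measured 21.9 and 19.5 CPM in parental, 20.3 and 24.9 in DMSO, 18.1 and 21.4 in IR and 3.15 and 5.22 in CR libraries. The IR libraries overlapped the untreated ones and the CR libraries did not. ONECUT1 fell by 2.09 ± 0.23 in CR cells (adjusted p = 3.6e-05, limma), and the change of -0.07 ± 0.23 in IR cells was not called (adjusted p = 0.874).

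The IR and CR cells of each line were then compared directly. With a single IR and a single CR line from each, the mode of selection and the particular derived line cannot be told apart. In Hep3B, ONECUT1 was higher in IR than in CR cells by a log2 difference of 2.02 ± 0.23 (adjusted p = 0.000196, limma), which was 1 of the 8 genes where 6.13% of all tested genes were higher. NR5A2 differed in the same direction by 1.13 ± 0.36, short of the threshold (adjusted p = 0.0543), and 8 of 29 alternatives called it. In Huh7 the difference went the other way for 2 of the 8 genes, where 6.36% of all tested genes were lower in IR cells. NR5A2 was lower in Huh7-IR than in Huh7-CR cells by -1.98 ± 0.36 (adjusted p = 0.00469) and HNF4A by -1.17 ± 0.34 (adjusted p = 0.0379). The HNF4A difference was lost under 15 of 29 alternatives and was -0.47 without Huh7-IR replicate 1, and the NR5A2 difference was lost without Huh7-CR replicate 2 (-1.64, adjusted p = 0.0598) and in fits of fewer libraries. With the replicate block FOXA1 was called higher in IR than in CR cells as well, by 0.59 in Huh7 (adjusted p = 0.0413) and 0.60 in Hep3B (adjusted p = 0.0409).

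The changes of the available resistant cells were also compared between the lines in a contrast of the same fit. For this, the change averaged over both resistant groups was set against that of the other line. It was more negative in Huh7 for 7 of the 8 factors, where 14.2% of all tested genes had a more negative change in Huh7. CEBPA had a mean log2 change of -4.65 in Huh7 and -1.35 in Hep3B, a difference of -3.30 ± 0.39 (adjusted p = 6.94e-05, limma). The difference was -2.52 ± 0.44 for NR5A2 (adjusted p = 0.00105), -1.99 ± 0.28 for ONECUT1 (adjusted p = 0.000272) and -1.49 ± 0.24 for FOXA3 (adjusted p = 0.000585). It was -1.35 ± 0.31 for FOXA1 (adjusted p = 0.00605), -1.46 ± 0.42 for HNF4A (adjusted p = 0.019) and -0.90 ± 0.23 for HNF4G (adjusted p = 0.0121). For FOXA2 it was -0.34 ± 0.32 and was not called (adjusted p = 0.46). ONECUT1 lay below 1 CPM in the Sorafenib libraries of Huh7, and its difference ranged from -3.29 to -0.99 over the 29 alternatives. Without Hep3B parental replicate 2 the calls of HNF4A (-1.48, adjusted p = 0.056) and HNF4G (-0.82, adjusted p = 0.0565) were lost, and HNF4A was also lost without Huh7 parental replicate 1 (-1.36, adjusted p = 0.0721) or Hep3B parental replicate 1 (-1.43, adjusted p = 0.0669).

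The DMSO libraries served as a second untreated group. In Huh7, 1 of the 8 factors was called against parental cells, FOXA1 with a log2 change of 1.03 ± 0.25 (adjusted p = 0.0399, limma), where 3.60% of all tested genes were higher. This call was lost under 16 of 29 alternatives, among them edgeR and TMM scaling, and without Huh7 parental replicate 1 the change was 0.72. In Hep3B none of the 8 was called with limma, edgeR or DESeq2 (1.64% of all tested genes were), and 1 of the 8, CEBPA with 0.74 ± 0.32, had an unadjusted p under 0.05. CEBPA measured more in both DMSO libraries than in both parental libraries in each line, but neither difference was called (adjusted p = 0.149 in Huh7 and 0.29 in Hep3B). With the replicate block the Huh7 difference of 0.79 was called (adjusted p = 0.0465), as was the 1.11 without Huh7 DMSO replicate 1 (adjusted p = 0.0438). With DMSO in place of parental cells as the reference, all 8 factors were lower in both resistant groups of Huh7, where 21.9% (IR) and 18.8% (CR) of all tested genes were, and 3 (IR) and 5 (CR) were lower in Hep3B, where 17.3% and 16.1% were. By the looser call rule of the study's methods (unadjusted p under 0.05 and a log2 change of at least 0.58 in size), 2 of the 8 differed between DMSO and parental cells in Huh7 (14.5% of all tested genes) and 1 in Hep3B (8.06%), and 3 differed between Hep3B-IR and Hep3B-CR cells (17.8%).

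Across the 16 libraries the levels of HNF4A and NR5A2 were most alike, with a Pearson correlation of log2(CPM + 1) of 0.98, and each was the nearest of all tested genes to the other. The libraries share the groups and the parental cells, so this value is a description. FOXA2 had its closest pattern in TKFC at 0.93, and its correlation with the other 7 factors was 0.54 to 0.75. The genes nearest to CEBPA were FGFR3, ASGR2 (a subunit of the hepatocyte asialoglycoprotein receptor) and CEBPA-DT at 0.98 each, and ANXA9 was nearest to FOXA1 at 0.99. SLC30A10 was nearest to FOXA3 at 0.98, SLC6A19 to ONECUT1 at 0.98 and DUSP6 to HNF4G at 0.97.

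The sequences at the annotated start sites of HNF4A and NR5A2, the pair with the most similar levels, and of CEBPA, which had the most negative change in Huh7-CR cells, are shown. Which start sites these cells use was not tested. Each window holds 250 bases before and 50 after the start given by RefSeq (GRCh38.p14), written 5′ to 3′ on the strand of the gene. HNF4A lies at chr20:44355449-44355748 (plus strand), NR5A2 at chr1:200027460-200027759 (plus strand) and CEBPA at chr19:33302485-33302784 (minus strand).
HNF4A: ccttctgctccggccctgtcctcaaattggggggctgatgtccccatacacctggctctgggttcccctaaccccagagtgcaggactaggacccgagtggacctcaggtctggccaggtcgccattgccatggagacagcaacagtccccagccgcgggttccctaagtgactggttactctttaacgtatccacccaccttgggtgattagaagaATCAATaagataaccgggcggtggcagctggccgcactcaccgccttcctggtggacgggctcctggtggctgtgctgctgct
NR5A2: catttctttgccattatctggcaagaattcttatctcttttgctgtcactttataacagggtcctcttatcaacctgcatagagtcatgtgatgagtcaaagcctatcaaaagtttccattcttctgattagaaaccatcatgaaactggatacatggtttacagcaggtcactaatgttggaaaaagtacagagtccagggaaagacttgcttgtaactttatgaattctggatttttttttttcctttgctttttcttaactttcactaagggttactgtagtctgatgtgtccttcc
CEBPA: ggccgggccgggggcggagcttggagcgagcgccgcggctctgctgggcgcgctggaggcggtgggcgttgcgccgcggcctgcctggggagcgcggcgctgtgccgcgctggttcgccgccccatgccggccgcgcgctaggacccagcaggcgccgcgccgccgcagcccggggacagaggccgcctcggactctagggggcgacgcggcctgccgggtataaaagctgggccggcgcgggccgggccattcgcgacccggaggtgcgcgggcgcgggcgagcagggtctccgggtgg
The capitals in HNF4A mark ATCAAT, the reverse complement of the core ATTGAT bound by ONECUT factors, at -33 from the start. The windows differed in base content, with 36.7% G and C in NR5A2 and 80.7% in CEBPA.

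Windows of the same length were found for 6 of the 8 factors (HNF4A, FOXA1, FOXA3, CEBPA, NR5A2 and ONECUT1). They were searched on both strands for ATTGAT, for TGTTTAC (FOXA), CAAAGTCCA (HNF4), CAAGGTCA (NR5A2), TTGCGCAA (C/EBP) and GTTAATNAT (HNF1). The match in HNF4A was the only one. Of 35116 promoters of this length in the RefSeq table, 6.26% held ATTGAT, 3.42% the FOXA, 1.28% the NR5A2, 0.792% the HNF1, 0.384% the HNF4 and 0.151% the C/EBP letters. A match in letters is no measured binding site, and its absence says only that these letters are not in the window.

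The noncoding RNA genes beside these factors were followed as well. LINC00261, which lies next to FOXA2 on chromosome 20 (22528301 to 22559280, minus strand, GRCh37), fell in all 4 resistant groups, also where FOXA2 was not called. It measured 256 and 317 CPM in Huh7 parental, 23.7 and 57.3 in IR and 36.7 and 50.2 in CR libraries, and its log2 changes were -2.91 ± 0.35 and -2.70 ± 0.35 (adjusted p = 2.71e-05 and 8.65e-05, limma). In Hep3B the changes were -1.53 ± 0.35 in IR and -1.71 ± 0.35 in CR cells (adjusted p = 0.00577 and 0.00247). The ratio of LINC00261 to FOXA2 in CPM per kb was 1.10 to 3.67 in untreated and 0.585 to 0.748 in Sorafenib libraries of Huh7, and 2.44 to 3.73 against 1.08 to 2.06 in Hep3B, which was not tested.

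CEBPA-DT, a divergent transcript that begins beside CEBPA, measured 3.99 and 3.87 CPM in Huh7 parental, 0.348 and 0.386 in IR and 0.325 and 0.798 in CR libraries. Its log2 change was -1.85 ± 0.23 and -1.67 ± 0.23 in IR and CR cells of Huh7 (adjusted p = 3.26e-05 and 0.000124, limma). In Hep3B it was -0.90 ± 0.23 and -0.82 ± 0.23 (adjusted p = 0.01 and 0.014). HNF4A-AS1, which overlaps HNF4A on the other strand, reached at most 0.206 CPM in any library and was not tested. GATA6-AS1 was not called in any of the 4 resistant groups.

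**Figure D1:**
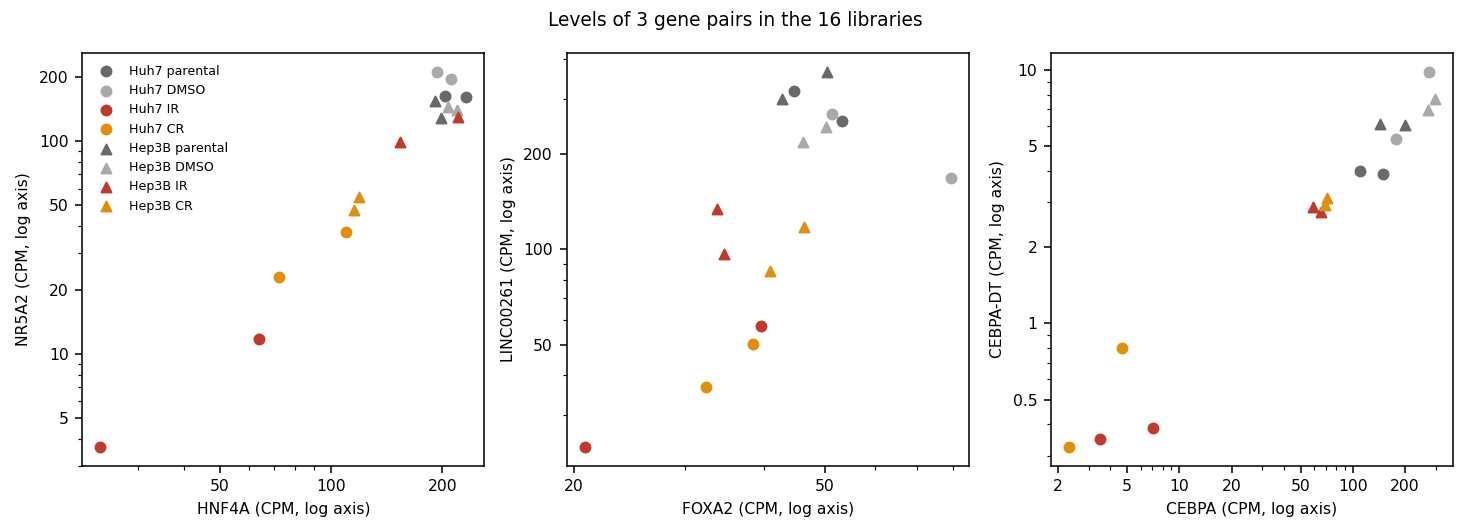
Levels in CPM on log axes of NR5A2 against HNF4A, LINC00261 against FOXA2 and CEBPA-DT against CEBPA, with a point per library (circles Huh7, triangles Hep3B). Huh7-IR replicate 1, with 23.7 CPM of HNF4A and 3.66 CPM of NR5A2, is the lowest point of the first panel and, with 20.8 CPM of FOXA2 and 23.7 CPM of LINC00261, of the second.

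Other regulators of the hepatocyte program did not share one direction. Of 25 listed, 22 were tested. In Huh7, 8 were lower and 6 higher in IR cells and 6 lower and 4 higher in CR cells, with median log2 changes of -0.04 and 0.01. Of all tested genes 21.5% (IR) and 16.8% (CR) were lower and 36.0% and 24.5% higher in Huh7, and 13.7% and 15.2% were lower and 18.3% and 23.6% higher in Hep3B. In Hep3B, 6 were lower and 3 higher in IR cells and 5 lower and 3 higher in CR cells, with medians of -0.14 and -0.52. PROX1, a homeobox factor of hepatoblasts, changed by -3.25 (IR) and -1.74 (CR) in Huh7 and by -1.02 and -1.64 in Hep3B, all of them called. ESRRG, an orphan nuclear receptor, was also called in all 4, with -1.93 and -1.27 in Huh7 and -3.17 and -3.57 in Hep3B. GATA4, a cofactor of the FOXA proteins in liver development, changed by -2.54 and -1.44 in Huh7 and by -0.88 in Hep3B-IR cells, and its -0.55 in Hep3B-CR cells was not called (adjusted p = 0.0885, limma). Beside CEBPB, PPARA, a nuclear receptor of fatty acid oxidation, rose in all 4 groups, by 2.29 and 1.94 in Huh7 and 1.6 and 1.73 in Hep3B. PPARA was also called higher in Huh7 DMSO cells (1.84), and its 1.26 in Hep3B DMSO cells was not called (adjusted p = 0.212, limma). Its mean was 45.65 CPM in Huh7 DMSO cells (replicates 20.03 and 71.27) against 54.75 in IR and 40.73 in CR cells. In Hep3B the means were 38.01 CPM in DMSO, 47.82 in IR and 53.34 in CR cells. Much of the rise over parental cells was thus also seen in the DMSO cells.

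Textbook target genes of the 8 factors were counted from a list of 35, of which 24 were tested. In Huh7, 16 were lower and none higher in IR cells and 15 lower and 1 higher in CR cells, with median log2 changes of -2.43 and -1.77. In Hep3B, 9 were lower and 2 higher in IR cells and 11 lower and 1 higher in CR cells, with medians of -0.77 and -0.93. The medians of all tested genes were 0.19 and 0.07 in Huh7 and 0.06 and 0.11 in Hep3B, and 21.5%, 16.8%, 13.7% and 15.2% of all tested genes were lower in these 4 comparisons. AFP, the fetal serum protein, was called in all 4 groups, with -10.22 and -8.19 in Huh7 and -1.74 and -5.03 in Hep3B. MTTP, which loads lipid onto apolipoprotein B, measured 276.5 to 306.6 CPM in Huh7 parental, 0.249 to 0.279 in IR and 0.3555 to 0.3665 in CR libraries, and in Hep3B it changed by -2.47 (IR) and -2.28 (CR), also called. TF, encoding transferrin, changed by -6.82 and -6.59 in Huh7 and by -4.55 in Hep3B-CR cells, and its -2.14 in Hep3B-IR cells was not called (adjusted p = 0.123, limma). Several targets are also among the 12 hepatocyte markers, of which 11 (IR) and 10 (CR) were lower in Huh7 and 7 and 10 in Hep3B. Of these markers 1 was called higher, SERPINA1 in Hep3B-IR cells (1.73, adjusted p = 0.0375, limma). Of the 7 mesenchymal markers, 6 were higher and 1 lower in each resistant group of Huh7. In Hep3B, 2 were higher and 1 lower in IR cells and 2 higher and none lower in CR cells, with median log2 changes of 0.03 and 0.004. Of all tested genes 36.0% (IR) and 24.5% (CR) were higher in Huh7, and 18.3% and 23.6% in Hep3B. The part that the hepatocyte, cholangiocyte, immune and mesenchymal marker levels had in the changes of the 8 factors was not tested.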

How the data were processed

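Single-end RNA-seq of 16 libraries (8 groups of 2, by sample title) was used. The study's methods name a stranded total RNA kit for the libraries and also state that poly-A+ RNA was sequenced. The authors mapped reads to hg19 with RNA-STAR, kept unique hits, counted them over RefSeq exons with qCount of QuasR and deposited CPM. The strand setting of the counting is not given in the sources used here, so reads of overlapping antisense genes may be shared. The methods state biological triplicates, and 2 libraries per group were analysed here. Each deposited CPM value corresponded to whole reads (100% of values, tolerance 0.05), and 26111 of 26258 gene IDs matched a symbol. CPM scales to the library total, so a few abundant genes can shift all others.

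Log2(CPM + 1) values were fitted with limma 3.58.1 (trend, R 4.3.3) in 1 model of 8 group means, two-sided, with BH adjustment over 15019 genes. Alternatives were edgeR 4.0.16 and DESeq2 1.42.0 on recovered reads, TMM, quantile and GC scaling, pseudocounts of 0.25 and 4, no filter and a filter of 5 CPM, fits of a line or of the compared groups alone, DMSO as reference, a replicate block, the call rule of the study's methods (unadjusted p under 0.05, log2 change of at least 0.58) and leaving out each library. The scripts were tested on simulated data.

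The members and lists were chosen with earlier results of these data known. All 8 members are named. From each other list, up to 3 genes with the highest and the lowest mean change among those called in 1 direction in at least 3 of 4 resistant groups were named, with the noncoding genes found. A noncoding gene and a check of the line labels are not reported here. Gene coordinates and transcript lengths are from GENCODE on GRCh37. Depth sets the precision, and counting error is only part of the spread.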

Additional observations from a re-analysis of the deposited data

Results flagged for a closer look

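The mean log2 change of IR and CR cells against parental cells differed between the lines by the contrast of the common fit (limma) for 7 of the 8 factors, each more negative in Huh7 than in Hep3B. The change in Huh7 minus that in Hep3B was -3.30 for CEBPA (adjusted p = 6.94e-05), -2.52 for NR5A2 (adjusted p = 0.00105), -1.99 for ONECUT1 (adjusted p = 0.000272), -1.49 for FOXA3 (adjusted p = 0.000585), -1.46 for HNF4A (adjusted p = 0.019), -1.35 for FOXA1 (adjusted p = 0.00605) and -0.90 for HNF4G (adjusted p = 0.0121). The ONECUT1 value ranged from -3.29 to -0.99 over the alternatives. Groups of 2 libraries were too small to look for single outlying libraries.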

How the results depend on the processing

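The counts of members lower against parental cells, 8 (IR) and 7 (CR) in Huh7 and 3 and 5 in Hep3B, and the 7 differing between the lines stayed within 1.5 times under every alternative, apart from leaving out Hep3B parental replicate 2, which gave 1 in Hep3B-IR cells. Leaving out single libraries gave 7 to 8, 6 to 7, 1 to 3, 4 to 6 and 5 to 7. For Huh7 DMSO against parental cells the count of 1 became 0 with edgeR, TMM, quantile scaling, no filter and fits of the line or the groups alone, 2 with the call rule of the study and 0 to 2 without single libraries. For Hep3B DMSO cells the call rule of the study gave 1 in place of 0. For Huh7-IR against CR cells (2) it was 1 with edgeR and no filter, 0 in fits of the line or groups alone, 4 after GC correction with or without the block and 0 to 3 without single libraries. For Hep3B-IR against CR cells (1) it was 2 with DESeq2, TMM, quantile scaling, a pseudocount of 4, the groups alone and GC correction with the block, 4 in the line alone, 3 with the call rule of the study and 1 to 3 without single libraries. Between the parental lines (2) it was 1 with edgeR, quantile scaling and DMSO as reference, and 1 to 2 without single libraries. The causes were not tested.

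Of 2352 values of single members under alternatives, 2207 kept direction and side of the threshold, 62 lost the call, 36 gained it and 47 changed sign. In the 47 neither value was past the threshold, the lowest adjusted p being 0.399 (limma, edgeR or DESeq2). In Huh7 DMSO cells FOXA3 was -0.0397 with edgeR, -0.0503 with DESeq2, -0.0387 with TMM, -0.0167 with quantile scaling and -0.24 after GC correction with or without the block, and -0.0723 to 0.0917 without single libraries. In Hep3B DMSO cells GC correction with or without the block gave FOXA2 -0.17 and FOXA3 -0.0012, and NR5A2 was -0.0084 with edgeR, -0.018 with DESeq2 and -0.0059 with TMM. Single libraries left out gave FOXA2 -0.0643 to 0.17, NR5A2 -0.12 to 0.14 and ONECUT1 -0.02 to 0.26 there. For IR against CR cells GC correction with or without the block gave CEBPA -0.10 in Huh7 and 0.19 in Hep3B, and quantile scaling gave ONECUT1 -0.0184 in Huh7. Single libraries left out gave HNF4G -0.20 to 0.0244, FOXA2 -0.74 to 0.16, FOXA3 -0.46 to 0.0352 and ONECUT1 -0.14 to 0.28 in Huh7. Between the parental lines DMSO as reference gave HNF4A -0.0759 and HNF4G 0.0625, and FOXA3 was 0.0501 with edgeR, 0.0418 with DESeq2, 0.0487 with TMM and 0.0805 after GC correction with or without the block. Single libraries left out gave FOXA2 -0.0572 to 0.19 and FOXA3 -0.12 to 0.0437 there. Against parental cells they gave HNF4A -0.34 to 0.18 and ONECUT1 -0.18 to 0.047 in Hep3B-IR, and HNF4G -0.20 to 0.0778 and FOXA2 -0.21 to 0.027 in Hep3B-CR cells.

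Replicates of the same number were not shown to be paired. Their deviations from the group means correlated above 0.1 in 13 of 28 pairs of groups (-0.22 to 0.44), and the replicate block moved the count from 1 to 2 in Huh7 DMSO against parental and in Hep3B-IR against CR cells and from 2 to 3 in Huh7-IR against CR cells. The share of higher genes among all genes called in Huh7-IR cells was 62.5% by CPM and 49.4% after quantile scaling. Replicates differed along GC content in some groups, the Spearman correlation of their difference with it being 0.53 for parental and -0.52 for DMSO cells of Huh7.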
